A study of Homo sapiens with 16 samples.

Results

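The 6 control libraries of the series, of 16 in all, were compared to describe how HPB-ALL differed at baseline from CUTLL1 and KOPTK1. All 3 are established human lines of acute lymphoblastic leukaemia of the T lineage (T-ALL), and the libraries were chosen by label alone. The 2 HPB-ALL libraries came from cells given lentivirus with CRISPR components and a non-targeting guide. The 2 CUTLL1 libraries were 1 such guide control and 1 control with a scrambled antisense oligonucleotide (ASO), and the 2 KOPTK1 libraries were 1 of each as well. Per the labels' protocols, ASOs were added to the medium at 1 uM, cells grew in RPMI with serum, and the RNA libraries were made with a strand-specific kit. The other 10 libraries had the lncRNA lnrCXCR4 targeted, by guides in all 3 lines and by ASOs in CUTLL1 and KOPTK1. They enter only where stated. HPB-ALL had no ASO control, so agent and line are separated in part only, and the labels do not say whether the libraries of a line came from separate cultures. The p-values below therefore cover only how far these libraries varied, and that variation may be technical.

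T-ALL arises from developing T cells in the thymus, and its subtypes are named for the transcription factor that is switched on out of place, such as TLX3, TLX1, TAL1 with LMO2, or genes of the HOXA cluster. Thymocytes first rearrange their T-cell receptor (TCR) gamma, delta and beta genes, then pass through a cortical stage with the coreceptors CD4 and CD8 and the lipid-presenting CD1 molecules, rearrange the alpha gene, and leave the thymus as single-positive cells. A leukaemic line keeps much of the stage and the receptor rearrangements of the cell it grew from, and activating NOTCH1 mutations and loss of CDKN2A are frequent in this disease.

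Values are normalised read counts as deposited, not divided by gene length. They are given for the 2 HPB-ALL libraries and then for the guide control and the ASO control of CUTLL1 and of KOPTK1, in that order. Recovered depth was 34547469 to 72178929 reads per control library, and 3 reads correspond to 1.96 to 3.96 normalised counts, so values near or under that level rest on a handful of reads. Libraries of a line lay close together: the mean chi-square per gene between them was 2.49 for HPB-ALL, 2.29 for CUTLL1 and 4.06 for KOPTK1, where 1 would be counting noise alone, and 268 to 511 between lines. The SD of the log2 difference over genes was 2.30 to 2.37 between HPB-ALL and other libraries, 1.92 to 1.98 between CUTLL1 and KOPTK1, and 0.277 to 0.295 within lines. Mitochondrially encoded genes held 1.83% and 1.84% of the counts in HPB-ALL, 2.17% and 2.12% in CUTLL1, and 2.48% and 2.45% in KOPTK1.

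The T-cell label was checked first. All 12 T-cell marker genes were detected at a tested level, and their summed values were 449787 and 440443 in HPB-ALL, 337674 and 330929 in CUTLL1, and 352678 and 345265 in KOPTK1. CD3E, a signalling chain of the TCR complex, had 32022 and 31562 counts in HPB-ALL, 31691 and 30467 in CUTLL1, and 32132 and 30756 in KOPTK1, which overlap (log2 difference 0.02, adjusted p = 0.428 by limma). Markers of other cell types were summed in the same way. Summed B-lineage markers were 11654 and 11428 in HPB-ALL, 899 and 915 in CUTLL1, and 4653 and 4570.1 in KOPTK1. In HPB-ALL most of the sum came from IGLL1, which immature T cells also transcribe. Of 11 such markers 4 reached a tested level (IGLL1, IGHM, CD79A and CD79B), while the B-cell gene MS4A1 (CD20) was at 0.952 or less in HPB-ALL. Summed myeloid markers were 4132 and 4384 in HPB-ALL, 11766 and 11409 in CUTLL1, and 6519.6 and 6610.3 in KOPTK1, nearly all from AIF1, with S100A8, S100A9, ELANE and FCGR3A at 0 everywhere. Erythroid and megakaryocytic markers summed to 34.4 and 30.5 in HPB-ALL, 564 and 560 in CUTLL1, and 232 and 241 in KOPTK1, with HBA2, HBB, GYPB and PF4 at 0 everywhere. Epithelial and fibroblast markers summed to 21958 and 22271 in HPB-ALL, 42045 and 42476.5 in CUTLL1, and 32359 and 32323 in KOPTK1, nearly all from VIM, an intermediate filament gene that lymphocytes also express. What part other cells have in the results was not tested, and in such bulk libraries fewer cells of a type and less RNA per cell cannot be told apart.

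Most measured genes separated the lines. Over the 14228 genes with a mean of 20 or more, limma's log2 difference of HPB-ALL minus the mean of the 2 other lines had a median of 0.011. At an adjusted p under 0.05, 5822 genes were higher (40.9%) and 5742 were lower (40.4%) in HPB-ALL. A stricter set was therefore used, called distinct below: genes past the threshold against CUTLL1 and against KOPTK1, in the same direction, by at least 1 on the log2 scale in each. This set held 1187 genes that were higher (8.34%) and 1308 that were lower (9.19%) in HPB-ALL. Together these were 2495 genes (17.5%). The counts of called and distinct members in the gene lists below are to be read beside these shares over all tested genes. By the same measure, 824 genes were distinct and higher (5.79%) and 781 distinct and lower (5.49%) in CUTLL1, and 688 were distinct and higher (4.84%) and 937 distinct and lower (6.59%) in KOPTK1. Pairwise, 11290 genes differed between HPB-ALL and CUTLL1 (79.4%), 11317 between HPB-ALL and KOPTK1 (79.5%) and 10826 between CUTLL1 and KOPTK1 (76.1%). Among the 374 tested lncRNA genes, 46 were distinct and higher (12.3%) and 32 distinct and lower (8.56%), against 911 (7.71%) and 1102 (9.33%) of the 11809 protein-coding genes. The 3 pairwise comparisons share their control libraries.

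**Figure D1:**
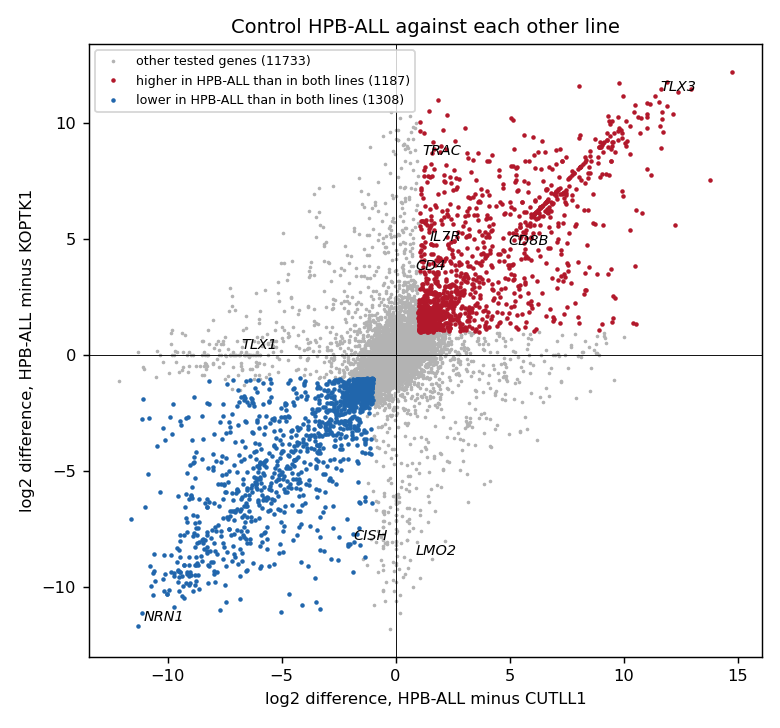
Log2 difference of HPB-ALL minus CUTLL1 (x axis) and of HPB-ALL minus KOPTK1 (y axis) for each of the 14228 tested genes, from the 6 control libraries. Red points are the 1187 genes higher in HPB-ALL than in both lines, blue points the 1308 genes lower in HPB-ALL than in both, and grey points the other 11733. The axes share the HPB-ALL libraries, so points spread along the diagonal in part for that reason.

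Among the subtype transcription factors, the largest difference was in TLX3, a homeobox gene that is normally silent in T cells and defines a subtype of T-ALL. It had 8753 and 7768 counts in HPB-ALL, against 1.95 and 2.3 in CUTLL1 and 0.969 and 5.87 in KOPTK1. Both HPB-ALL libraries were high and the 4 other libraries were at a few reads (log2 difference 11.25, SE 0.44, adjusted p = 2.86e-07 by limma). The size of such a difference depends on the pseudocount of 1, since the lower side is near 0. Such a gene also passed the filter on the mean through HPB-ALL alone, so its p-value adds no support. LYL1, a basic helix-loop-helix factor linked to immature T-ALL, was also high in HPB-ALL alone, with 445 and 418 counts in HPB-ALL, 1.95 and 2.3 in CUTLL1, and 9.69 and 7.17 in KOPTK1 (log2 difference 6.32, SE 0.19, adjusted p = 7.08e-08 by limma). BCL11A, a zinc-finger repressor of early lymphoid progenitors, went the other way. It had 79.3 and 92.4 counts in HPB-ALL, against 2214 and 2225 in CUTLL1 and 1738 and 1797 in KOPTK1, with no overlap (log2 difference -4.52, SE 0.07, adjusted p = 3.62e-09 by limma).

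Other subtype factors were at or near 0 in HPB-ALL and higher in CUTLL1, at low counts, or in KOPTK1. TLX1, the homologue of TLX3, was listed at 0 in both HPB-ALL libraries and in KOPTK1, and at 131 and 121 in CUTLL1, where NKX2-2 also had 81 and 91 counts. TAL1 had 2.64 and 1.9 counts in HPB-ALL, 3.9 and 4.61 in CUTLL1, and 721 and 705 in KOPTK1. Its partner LMO2 had 21.1 and 17.1 counts in HPB-ALL, 3.9 and 32.2 in CUTLL1, and 9169 and 9087 in KOPTK1. TAL1 and LMO2 were thus high in KOPTK1 alone. TLX2, the third member of the TLX family, was at 2.64 and 1.9 in HPB-ALL, against 44.9 and 64.5 in CUTLL1 and 38.7 and 39.1 in KOPTK1 (log2 difference -3.85). BCL11B, the zinc-finger factor that commits progenitors to the T lineage, differed little, with 9932 and 10198 counts in HPB-ALL, 7599.6 and 8546 in CUTLL1, and 10141 and 10383 in KOPTK1. Its values in HPB-ALL overlapped those in KOPTK1 and were above those in CUTLL1, and its adjusted p of 0.0181 by limma was lost under several alternatives. Of the 28 subtype factors listed, 16 could be tested: 9 were higher and 7 lower in HPB-ALL, 2 distinct in each direction, with a median log2 difference of 0.16.

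The promoters of TLX3, the subtype factor with the largest difference, and of a gene off in HPB-ALL alone are shown because the data separate them completely. NRN1, which encodes the small membrane-anchored protein neuritin, was listed at 0 in both HPB-ALL libraries, against 2562 and 2399 counts in CUTLL1 and 3272 and 3307 in KOPTK1. Each stretch, taken from RefSeq (GRCh38.p14), runs from 250 bases before the annotated start to 50 bases after it, in the direction of the gene, and capitals mark CG dinucleotides. TLX3 lies at chr5:171308998-171309297 on the + strand and NRN1 at chr6:6003976-6004275 on the - strand.
TLX3: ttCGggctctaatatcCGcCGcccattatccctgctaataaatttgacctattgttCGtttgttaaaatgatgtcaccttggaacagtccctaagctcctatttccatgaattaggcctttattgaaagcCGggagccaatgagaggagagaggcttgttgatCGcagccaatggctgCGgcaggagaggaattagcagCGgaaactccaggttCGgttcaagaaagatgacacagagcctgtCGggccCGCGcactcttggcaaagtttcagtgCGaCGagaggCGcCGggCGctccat
NRN1: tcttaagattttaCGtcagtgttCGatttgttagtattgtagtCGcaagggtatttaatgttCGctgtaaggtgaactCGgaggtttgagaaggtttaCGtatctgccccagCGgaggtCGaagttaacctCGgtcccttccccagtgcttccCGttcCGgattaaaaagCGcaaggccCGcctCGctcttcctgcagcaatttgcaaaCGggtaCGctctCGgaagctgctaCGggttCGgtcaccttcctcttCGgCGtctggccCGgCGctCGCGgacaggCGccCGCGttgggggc
The TLX3 stretch held 17 CG dinucleotides and the NRN1 stretch 28, against a median of 26 over the promoters of tested genes. Neither held the letters TATAAA or CACGTG on either strand, which 5.24% and 10.4% of the promoters of tested genes did. A search by letters is a description only and says nothing about factor binding.

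Genes of the HOXA cluster, homeobox factors that mark another T-ALL subtype, and their TALE partners form a list of 20, of which 9 could be tested. Of these 7 were higher and 2 lower, and 6 were distinct, all higher, with a median log2 difference of 5.74. Several passed the low-value filter through HPB-ALL alone and so had to differ, and these counts support no direction for the list. In the guide-targeted libraries 6 could be tested, 2 were distinct and higher and 1 distinct and lower, with a median of 0.78. HOXA5 had 174 and 171 counts in HPB-ALL, against 0 and 0 in CUTLL1 and 0.969 and 0.652 in KOPTK1. HOXA3 had 99.1 and 100 counts in HPB-ALL, against at most 1.15 elsewhere, and HOXA6 had 118 and 104 in HPB-ALL, against at most 1.3. The 3 genes rose above a few reads in HPB-ALL alone, whereas HOXA9, the cluster member most studied in leukaemia, was listed at 0 in every control library. MEIS2, a TALE cofactor, had 977 and 932 counts in HPB-ALL, 2.93 and 5.76 in CUTLL1, and 59.1 and 63.2 in KOPTK1 (log2 difference 5.74). PBX3, of the same class, had 2985 and 2921 counts in HPB-ALL, 824 and 860.2 in CUTLL1, and 1266 and 1299.5 in KOPTK1 (log2 difference 1.51).

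A list of genes linked to early T-cell precursor leukaemia or to poor-risk leukaemia showed a split. Of its 7 tested members 5 were distinct and higher in HPB-ALL and none distinct and lower, with a median log2 difference of 4.48. Most of the higher members passed the low-value filter through HPB-ALL alone and so had to differ. These counts and the median therefore support no direction for this list either. BAALC, a marker of immature leukaemias, had 2110.4 and 2069 counts in HPB-ALL, 0 and 0 in CUTLL1, and 0.969 and 1.96 in KOPTK1. FLT3, a receptor kinase of early progenitors, had 231 and 236 counts in HPB-ALL, 3.9 and 3.45 in CUTLL1, and 25.2 and 20.2 in KOPTK1 (log2 difference 4.48). Both were high in HPB-ALL, and so was IGFBP7, a secreted growth-factor binding protein, with 159 and 154 counts in HPB-ALL and at most 0.652 elsewhere. IGLL1, the surrogate light chain of precursor B cells, which immature T cells also transcribe, had 10349.8 and 10071 counts in HPB-ALL, 514 and 546 in CUTLL1, and 1949 and 1966 in KOPTK1 (log2 difference 3.32). IGHM, the heavy chain constant gene of IgM, had 777 and 822 counts in HPB-ALL, 0 and 0 in CUTLL1, and 0 and 2.61 in KOPTK1. The stem-cell genes CD34 and KIT and the myeloid factors SPI1 and MEF2C were at 0 in both HPB-ALL libraries and at most 1.15 elsewhere.

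**Figure D2:**
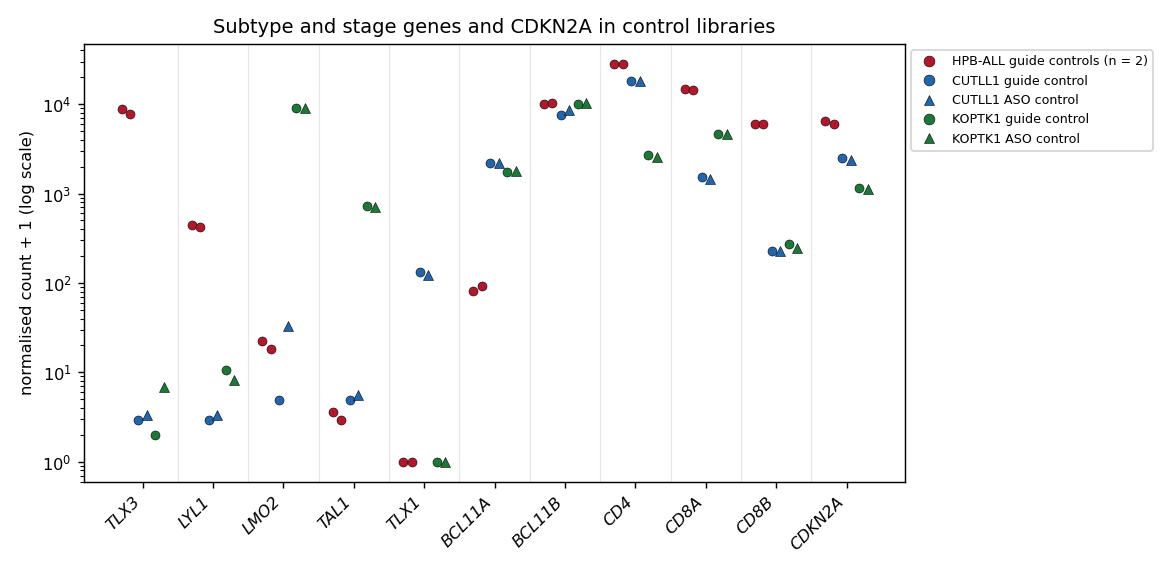
Normalised counts plus 1 (log axis) of 11 genes in each of the 6 control libraries, with HPB-ALL (red) left of CUTLL1 (blue) and KOPTK1 (green) for each gene. Points are single libraries, circles with guides and triangles with ASOs. TLX3 and LYL1 were high in HPB-ALL alone, LMO2 and TAL1 in KOPTK1 alone and TLX1 in CUTLL1 alone, and BCL11A was lowest in both HPB-ALL libraries.

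Reads of TCR segments fell on different beta-chain variable segments in each line. Junctions were not measured. TRBV5-5, a beta-chain variable segment, had 25713 and 25761 counts in HPB-ALL, 5.85 and 8.06 in CUTLL1, and 10.7 and 27.4 in KOPTK1 (log2 difference 11.07). It held 62.3% of the counts over TRBV segments in HPB-ALL, whereas TRBV6-6 held 94.0% in CUTLL1 and TRBV29-1 held 68.8% in KOPTK1. TRBV6-6 had 44.9 and 64.8 counts in HPB-ALL, against 52438 and 50134 in CUTLL1, and TRBV29-1 had 55.5 and 10.5 in HPB-ALL, against 29142 and 28991 in KOPTK1. No line shared its leading beta segment with another. A second segment, TRBV7-3, had 9817 and 11002 counts in HPB-ALL, 567 and 578 in CUTLL1, and 680.1 and 732 in KOPTK1. Near-identical segments may share reads, so values of single segments are uncertain. Among joining segments, TRBJ2-5 had 733 and 782 counts in HPB-ALL and at most 23.5 elsewhere, while TRBJ2-1 was listed at 0 in HPB-ALL and had 169.8 and 173 counts in CUTLL1 and 1593 and 1581 in KOPTK1. The beta constant gene TRBC2 was high in all 3 lines, with 170515 and 167995 counts in HPB-ALL, 123666 and 120177 in CUTLL1, and 135198 and 131791 in KOPTK1 (log2 difference 0.41).

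HPB-ALL and CUTLL1 also transcribed the alpha chain, which KOPTK1 almost lacked. TRAC, the alpha constant gene, had 56797 and 55032 counts in HPB-ALL, 29066 and 28444 in CUTLL1, and 142 and 199 in KOPTK1 (log2 difference 4.66, SE 0.11, adjusted p = 2.73e-08 by limma). Against CUTLL1 alone the log2 difference was 0.96, so TRAC was not distinct. TRAV19 had 14243 and 14578 counts in HPB-ALL, 0 and 0 in CUTLL1, and 85.2 and 71.1 in KOPTK1. It held 56.9% of the TRAV counts in HPB-ALL, beside TRAV5 with 8225 and 7972 counts in HPB-ALL and at most 7.17 elsewhere. Segments TRAV2 to TRAV5 and TRAV8-6 to TRAV19 were distinct and higher in HPB-ALL as runs of neighbouring genes, which is a pattern chosen after the values were seen. TRAV9-2 held 78.7% in CUTLL1, where it had 8542 and 8381 counts, against 2.64 and 0 in HPB-ALL. The joining segment TRAJ3 had 2125 and 2091 counts in HPB-ALL, 1094 and 1192 in CUTLL1, and 0 and 3.26 in KOPTK1, so it led in both HPB-ALL and CUTLL1. The delta constant gene TRDC had 9.25 and 2.86 counts in HPB-ALL, 0 and 28.8 in CUTLL1, and 14279 and 13881 in KOPTK1, so the line with little TRAC was the line with much TRDC.

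Gamma-chain segments differed in both directions. TRGV3 had 4689 and 4756 counts in HPB-ALL, 27.3 and 32.2 in CUTLL1, and 232 and 230.2 in KOPTK1 (log2 difference 5.81), and it held 99.5% of the TRGV counts in HPB-ALL. The gamma constant gene TRGC2 had 11188 and 10762 counts in HPB-ALL, 348 and 352 in CUTLL1, and 3165 and 3066 in KOPTK1 (log2 difference 3.39), with no overlap. Other variable segments were lower in HPB-ALL: TRGV8 had 2.64 and 0.952 counts in HPB-ALL, 25.4 and 25.3 in CUTLL1, and 594 and 625 in KOPTK1. TRGV4 was listed at 0 in both HPB-ALL libraries, against 9.76 and 11.5 in CUTLL1 and 796 and 773 in KOPTK1. TRGV2 had 14.5 and 25.7 counts in HPB-ALL, 1044 and 1009 in CUTLL1, and 13.6 and 7.17 in KOPTK1, so it was high in CUTLL1 alone. TRGC1, the near-identical neighbour of TRGC2, had 1670.3 and 1503 counts in HPB-ALL, which lay between 2279 and 2157 in CUTLL1 and 703 and 597 in KOPTK1. PTCRA, the pre-TCR alpha chain that pairs with a fresh beta chain, had 2338 and 2299.9 counts in HPB-ALL, 2192 and 2265 in CUTLL1, and 119 and 108 in KOPTK1. The phosphatase PTPRC (CD45), which sets the threshold of TCR signalling, was distinct and lower, with 4499.6 and 4687 counts in HPB-ALL, 23110.0 and 23650.1 in CUTLL1, and 14009.8 and 14201 in KOPTK1 (log2 difference -1.98). The adaptor LAT was lower as well, with 64.8 and 89.5 counts in HPB-ALL, 332 and 274 in CUTLL1, and 336 and 354 in KOPTK1 (log2 difference -2.07). Across the constant-chain and CD3 list, 13 of 22 tested genes were higher and 7 lower, but 1 was distinct and higher and 2 distinct and lower.

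**Figure D3:**
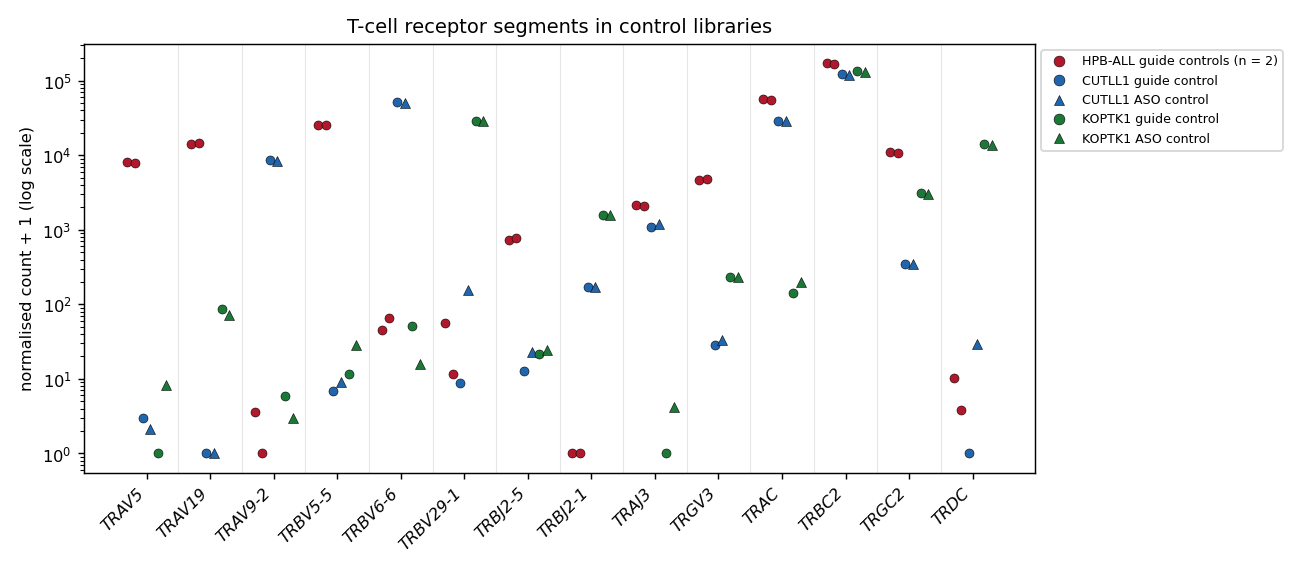
Normalised counts plus 1 (log axis) of 14 T-cell receptor segments and constant genes in each of the 6 control libraries, with HPB-ALL (red) left of CUTLL1 (blue) and KOPTK1 (green). Circles are guide controls and triangles ASO controls. TRAV5, TRAV19, TRBV5-5, TRBJ2-5 and TRGV3 were high in HPB-ALL, TRAV9-2 and TRBV6-6 in CUTLL1, and TRBV29-1 and TRDC in KOPTK1.

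Of the 26 tested genes of the thymocyte surface and recombination list 19 were higher and 7 lower in HPB-ALL, 8 distinct and higher and 3 distinct and lower, with a median log2 difference of 0.83. CD8B, the beta chain of the CD8 coreceptor, had 5984 and 5954 counts in HPB-ALL, 224 and 228 in CUTLL1, and 273 and 246 in KOPTK1 (log2 difference 4.62, SE 0.06, adjusted p = 1.45e-09 by limma). CD8A had 14745 and 14502 counts in HPB-ALL, 1539.6 and 1466 in CUTLL1, and 4694 and 4606 in KOPTK1 (log2 difference 2.47). CD4 had 28258 and 28149.5 counts in HPB-ALL, 18169 and 18183 in CUTLL1, and 2714 and 2596 in KOPTK1. HPB-ALL libraries were thus the highest for all 3 coreceptor genes, although CD4 was only 0.63 higher on the log2 scale than in CUTLL1 and was not distinct. CD1A had 17704 and 17212 counts in HPB-ALL, 2275 and 2156 in CUTLL1, and 2995 and 2903 in KOPTK1 (log2 difference 2.77). The other CD1 genes of cortical thymocytes, CD1B, CD1C and CD1E, were higher by log2 differences of 0.81, 0.86 and 0.56 and were not distinct. In the guide-targeted libraries CD1B had 2986 and 2904 counts in HPB-ALL, 4188 and 4335 in CUTLL1, and 619 and 587 in KOPTK1, and CD1C was likewise lower in HPB-ALL than in CUTLL1 there. IL7R, the receptor chain for the survival cytokine IL-7, had 23250.0 and 22519 counts in HPB-ALL, 9444 and 9686 in CUTLL1, and 913 and 906 in KOPTK1 (log2 difference 2.96), and the costimulatory receptor CD28 had 19021 and 18877 in HPB-ALL, 6330.2 and 6165 in CUTLL1, and 8154 and 8324 in KOPTK1.

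Distinct and lower members of that list included genes of homing and activation. CCR9, a chemokine receptor of thymocytes and gut-homing cells, had 139 and 130.5 counts in HPB-ALL, 10674 and 10862 in CUTLL1, and 6605 and 6424 in KOPTK1 (log2 difference -5.95). CD69, an early activation antigen that retains cells in tissue, had 59.5 and 47.6 counts in HPB-ALL, 1594 and 1633 in CUTLL1, and 319.7 and 362 in KOPTK1 (log2 difference -3.77). In each of these genes both HPB-ALL libraries lay below all other libraries. For the recombination genes DNTT and RAG1 both HPB-ALL libraries lay above all other libraries. The margin was small over KOPTK1 for DNTT and over CUTLL1 for RAG1, so neither was distinct. DNTT, which adds bases at the joints, had 8004 and 8384 counts in HPB-ALL, 2763 and 2853 in CUTLL1, and 7415 and 7435 in KOPTK1. RAG1, of the recombinase, had 4956 and 4819 counts in HPB-ALL, 4318 and 4456 in CUTLL1, and 2162 and 2194 in KOPTK1.

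Transcription factors of the T lineage differed in both directions, 24 of 37 tested being higher and 13 lower in HPB-ALL, with 10 distinct and higher, 4 distinct and lower and a median log2 difference of 0.57. TCF4 (E2-2), an E protein best known from plasmacytoid dendritic cells, had 1410.0 and 1344 counts in HPB-ALL, against at most 1.15 elsewhere (log2 difference 9.72). SPIB, an ETS factor of the same cells and of early thymocytes, had 692 and 687 counts in HPB-ALL, 25.4 and 23 in CUTLL1, and 42.6 and 38.5 in KOPTK1 (log2 difference 4.42). Both were high in HPB-ALL alone. ETS2 had 51897 and 51953 counts in HPB-ALL, 1067 and 1133 in CUTLL1, and 15272 and 14975 in KOPTK1 (log2 difference 3.67). IKZF3 (Aiolos), of the Ikaros family, had 3319.6 and 2957 counts in HPB-ALL, 243 and 278 in CUTLL1, and 723 and 595 in KOPTK1 (log2 difference 2.92). LEF1, which acts in WNT signalling and in T-cell development, was the highest in HPB-ALL, with 90532 and 88388 counts, against 36630.0 and 37488 in CUTLL1 and 32165 and 31374 in KOPTK1 (log2 difference 1.38). RUNX3, which silences CD4 in CD8 lineage cells, was 2.61 higher on the log2 scale. Distinct and lower were ID3, an inhibitor of E proteins (log2 difference -2.47), PRDM1 (-4.03), RORA (-2.31) and the immediate early factor EGR1 (-2.01), whereas the E-protein inhibitor ID2 was 2.13 higher.

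The NOTCH list did not move one way: of 29 tested genes 14 were higher and 11 lower, 6 distinct in each direction, and the median log2 difference was 0.13. NOTCH1, the receptor most often mutated in T-ALL, had 34707 and 31801 counts in HPB-ALL, 26184 and 26751 in CUTLL1, and 18394 and 17627 in KOPTK1 (log2 difference 0.61, adjusted p = 3.5e-06 by limma). NOTCH2 had 18268 and 17053 counts in HPB-ALL, 4808 and 4699 in CUTLL1, and 6313 and 5784 in KOPTK1 (log2 difference 1.72). CR2, a complement receptor and a NOTCH target in T-ALL, had 18321 and 17616 counts in HPB-ALL, 415 and 393 in CUTLL1, and 3144 and 3118 in KOPTK1 (log2 difference 5.47 against CUTLL1 and 2.52 against KOPTK1). FBXW7, the ubiquitin ligase subunit that degrades active NOTCH1 and MYC, was 1.79 higher on the log2 scale, with 7032 and 6957 counts in HPB-ALL, 1699 and 1728 in CUTLL1, and 2449 and 2325 in KOPTK1. The ligand DLL4 had 70 and 69.5 counts in HPB-ALL, against at most 2.91 elsewhere.

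The NOTCH-list gene with the largest difference was lower in HPB-ALL. MFNG, one of the Fringe glycosyltransferases that modify NOTCH receptors, had 1.32 and 1.9 counts in HPB-ALL, 5915 and 5637 in CUTLL1, and 5787 and 5655 in KOPTK1 (log2 difference -11.11). LFNG, another Fringe, had 0 and 1.9 counts in HPB-ALL, 26.3 and 34.5 in CUTLL1, and 82.3 and 69.8 in KOPTK1. The target HEYL and the ligand JAG2 were listed at 0 in both HPB-ALL libraries, with HEYL at 41.5 to 59.3 in the others. HPB-ALL thus had almost no reads of 2 of the 3 Fringe genes, at the level of single reads. Direct targets did not follow a common order: HES1 had 936 and 965 counts in HPB-ALL, 2591 and 2521 in CUTLL1, and 567 and 571 in KOPTK1, and NRARP had 79.3 and 67.6 in HPB-ALL, 2229 and 2289 in CUTLL1, and 2.91 and 0 in KOPTK1. MYC, a NOTCH1 target and oncogene, had 24338 and 23602 counts in HPB-ALL, 10466 and 10295 in CUTLL1, and 17124 and 16789 in KOPTK1 (log2 difference 0.85, adjusted p = 3.65e-08 by limma), the highest in HPB-ALL but not distinct.

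Of 30 tested cytokine receptor and JAK-STAT genes 10 were higher and 18 lower, 3 distinct and higher and 6 distinct and lower, with a median log2 difference of -0.44. STAT5A, a transcription factor activated by IL-7 and IL-2, had 35.7 and 21.9 counts in HPB-ALL, 280.0 and 291 in CUTLL1, and 10088 and 9675 in KOPTK1 (log2 difference -5.86). CISH, a STAT5 target that dampens the pathway, had 48.9 and 50.5 counts in HPB-ALL, 209 and 222 in CUTLL1, and 15411 and 14634 in KOPTK1 (log2 difference -5.15). SOCS2, of the same family, had 10.6 and 5.71 counts in HPB-ALL, 253 and 292 in CUTLL1, and 3141 and 3257 in KOPTK1 (log2 difference -6.73), and SOCS3 was listed at 0 in both HPB-ALL libraries. Each was lowest in both HPB-ALL libraries and, SOCS3 apart, far higher in KOPTK1 than in CUTLL1. IL2RB, a receptor chain for IL-2 and IL-15, was also lower (log2 difference -3.09). IL10RA, the IL-10 receptor, was higher, with 1226 and 1209 counts in HPB-ALL, 190.3 and 185 in CUTLL1, and 31 and 39.1 in KOPTK1 (log2 difference 3.89).

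Genes of PI3K signalling, which drives growth downstream of antigen and cytokine receptors, were called about as often as all genes: 9 of 21 tested were higher and 9 lower in HPB-ALL, 1 distinct and higher and 4 distinct and lower, with a median log2 difference of -0.02. PIK3CD, the leukocyte catalytic subunit, had 1065 and 955 counts in HPB-ALL, 3450.0 and 3362 in CUTLL1, and 9082 and 8935 in KOPTK1, with no overlap (log2 difference -2.46). The regulatory subunit PIK3R5 was lower too (log2 difference -3.25), as was TSC2, a brake on mTOR (-1.13). PIK3IP1, an inhibitor of PI3K, was higher, with 367 and 321 counts in HPB-ALL, 115 and 99 in CUTLL1, and 52.3 and 52.2 in KOPTK1 (log2 difference 2.18).

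Homing and adhesion genes were mostly lower in HPB-ALL. Of 29 tested, 9 were higher and 19 lower in HPB-ALL, and 3 were distinct and higher against 13 distinct and lower, with a median log2 difference of -0.62. Over all tested genes 40.9% were higher and 40.4% lower, with 8.34% distinct and higher and 9.19% distinct and lower. CXCR4, the receptor for CXCL12 that holds T-ALL cells in the bone marrow, had 32379 and 31151 counts in HPB-ALL, 24919.8 and 24422 in CUTLL1, and 18309 and 17550.1 in KOPTK1. HPB-ALL was the highest without overlap, but by a small margin (log2 difference 0.59, SE 0.03, adjusted p = 6.15e-07 by limma). ITGA5, the fibronectin-binding integrin chain, had 9.25 and 9.52 counts in HPB-ALL, 2005 and 1962 in CUTLL1, and 2974 and 2777 in KOPTK1 (log2 difference -7.85). CD96, a receptor for nectin-like proteins, had 112 and 117 counts in HPB-ALL, 6299 and 6312 in CUTLL1, and 6184 and 5875 in KOPTK1 (log2 difference -5.74). S1PR1, which guides exit from lymphoid organs, was listed at 0 in both HPB-ALL libraries, against 61.5 and 55.3 in CUTLL1 and 558 and 527 in KOPTK1. The integrin chain ITGAL, the selectin ligand SELPLG and the adhesion molecule ICAM3 were lower (log2 differences -2.37, -2.58 and -2.01). Higher were CCR4, a skin-homing receptor, with 844 and 827 counts in HPB-ALL, 3.9 and 2.3 in CUTLL1, and 101 and 93.9 in KOPTK1 (log2 difference 5.39), and the fractalkine receptor CX3CR1, with 864 and 835 in HPB-ALL and at most 3.87 elsewhere. The lymph-node homing receptor CCR7 had 1543 and 1450.4 counts in HPB-ALL, 551 and 548 in CUTLL1, and 517 and 509.9 in KOPTK1 (log2 difference 1.49).

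Genes of growth arrest and the damage response did not share a direction. CDKN1A (p21), a cell-cycle inhibitor, had 374 and 362 counts in HPB-ALL, 125 and 105 in CUTLL1, and 92 and 95.8 in KOPTK1 (log2 difference 1.82). SESN2, a stress-induced brake on mTOR, had 2447 and 2299 counts in HPB-ALL, 604 and 636 in CUTLL1, and 1092 and 1095 in KOPTK1 (log2 difference 1.53). Both were higher in HPB-ALL without overlap. The repair gene XPC had 581 and 604 counts in HPB-ALL, 2417 and 2328 in CUTLL1, and 1728 and 1684 in KOPTK1 (log2 difference -1.76), and the death receptor TNFRSF10B was lower too (log2 difference -6.62).

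CDKN2A, the locus of p16 and p14ARF that T-ALL often deletes, was detected in every library. It had 6461 and 5959.8 counts in HPB-ALL, 2503 and 2362 in CUTLL1, and 1154 and 1135 in KOPTK1 (log2 difference 1.89, SE 0.04). In the BCL2 family, the death genes BCL2L11 (BIM) and BIK were lower and BMF higher in HPB-ALL. BCL2L11 had 55.5 and 49.5 counts in HPB-ALL, 3897 and 4003 in CUTLL1, and 2084 and 2058 in KOPTK1 (log2 difference -5.74). BMF had 1826 and 1813 counts in HPB-ALL, 254 and 249 in CUTLL1, and 122 and 120.0 in KOPTK1 (log2 difference 3.38). The survival gene BCL2L1 (BCL-XL) was lower, with 3987 and 3897 counts in HPB-ALL, 13820.5 and 13654 in CUTLL1, and 12125 and 12030.0 in KOPTK1 (log2 difference -1.71). In the S-phase list 24 of 25 genes were lower and 1 higher in HPB-ALL, none of them distinct, with a median log2 difference of -0.59. The mitosis list had 16 of 25 lower and 7 higher, with a median of -0.08. Over all tested genes 40.4% were lower and 40.9% higher.

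Of 23 tested stress and immediate early genes 14 were higher and 5 lower in HPB-ALL, 4 distinct and higher and 5 distinct and lower, with a median log2 difference of 0.63. Of the lower genes, JUNB, an AP-1 factor, had 5.29 and 0.952 counts in HPB-ALL, 1886 and 2070.4 in CUTLL1, and 2246 and 2283 in KOPTK1 (log2 difference -9.24). HSPA1B, an inducible heat-shock chaperone, had 2.64 and 1.9 counts in HPB-ALL, 1360.1 and 1338 in CUTLL1, and 869 and 938 in KOPTK1 (log2 difference -8.41). DUSP6, the phosphatase that feeds back on ERK, was lower too (log2 difference -3.91). Of the higher genes, TNFAIP3 (A20), a feedback inhibitor of NF-kB, had 12715 and 12506 counts in HPB-ALL, 2334 and 2317 in CUTLL1, and 2224 and 2109 in KOPTK1 (log2 difference 2.49). NFKBIA, the NF-kB inhibitor, was 1.38 higher on the log2 scale, and the orphan nuclear receptor gene NR4A1 was 3.66 higher. Of the 29 tested interferon genes 11 were higher and 14 lower, with the antiviral GTPase genes MX2 and MX1 and the nuclease ISG20 distinct and higher (log2 differences 3.41, 2.21 and 1.84). IFI6 and OASL were distinct and lower, OASL being listed at 0 in both HPB-ALL libraries.

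Of 23 tested tyrosine kinases, 5 were distinct and higher and 4 distinct and lower in HPB-ALL. EPHA4, an ephrin receptor, had 469 and 462 counts in HPB-ALL and at most 0.652 elsewhere, and EPHA2 had 131 and 131 in HPB-ALL and at most 3.9 elsewhere. FLT4, a receptor for VEGF-C, was listed at 0 in both HPB-ALL libraries, against 203 and 207 in CUTLL1 and 2042 and 2026 in KOPTK1. The cancer-testis gene PRAME had 443 and 436 counts in HPB-ALL, 1.95 and 1.15 in CUTLL1, and 46.5 and 37.2 in KOPTK1 (log2 difference 5.41). In metabolism, 17 of 24 glycolysis and hypoxia genes were lower and 5 higher, against 40.4% and 40.9% of all tested genes. The lower ones included ALDOC, an aldolase (log2 difference -3.59), and BNIP3, of mitochondrial turnover (-5.72), while VEGFA was 2.04 higher. A list of 28 chromatin genes and other genes mutated in T-ALL, ribosomal protein genes among them, had no distinct member in either direction. Ribosome biogenesis genes had 2 distinct members, both lower, GNL3 and RRP9 (log2 differences -1.22 and -1.10).

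**Figure D4:**
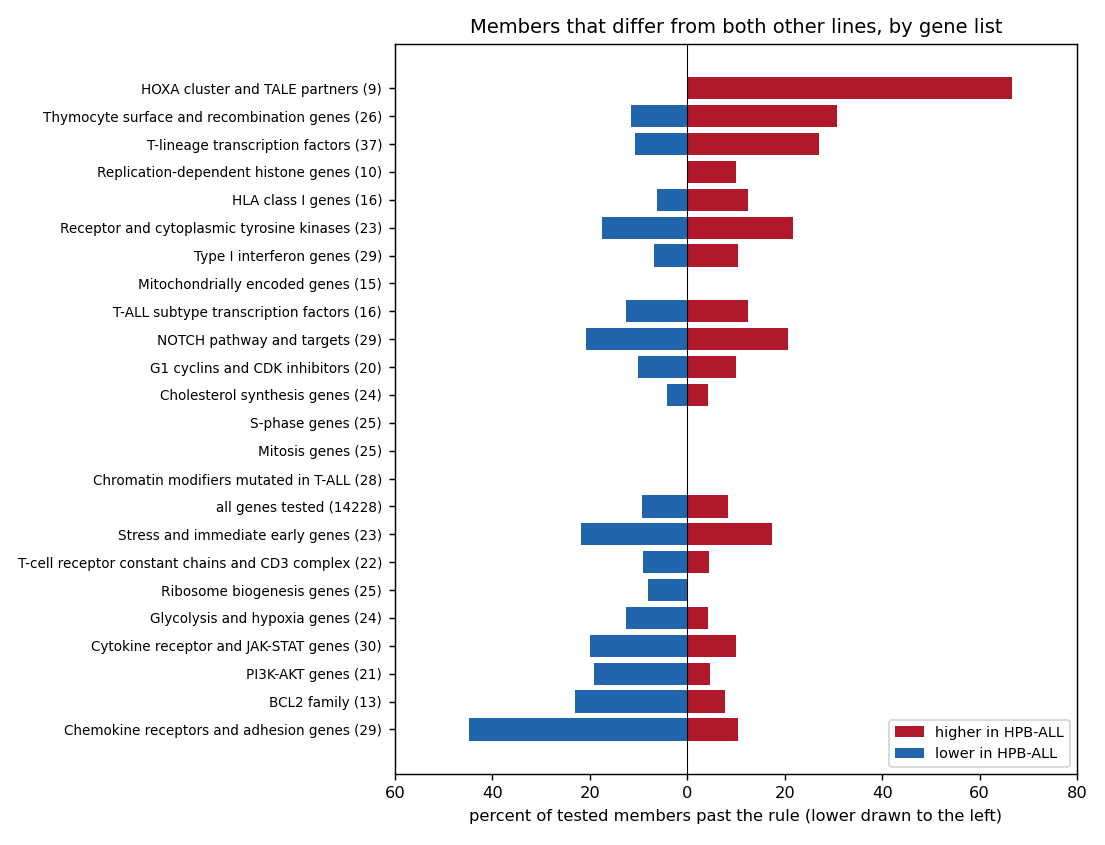
Percent of the tested members of each drawn gene list that were distinct in HPB-ALL, higher to the right and lower to the left of 0. Cell type marker lists, a further list and lists with fewer than 9 tested members are not drawn, the early T-cell precursor list among them. Over all tested genes these shares were 8.34% and 9.19%. The bar of the HOXA and TALE list rests on 9 genes, several of which passed the low-value filter through HPB-ALL alone. Chemokine and adhesion genes stood to the left, and the S-phase, mitosis and chromatin lists held no distinct gene.

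Across the 14228 tested genes, 91 (0.64%) had 200 counts or more in both HPB-ALL libraries and under 5 in every other control library, and 103 (0.724%) showed the reverse. The largest differences among higher genes included several not usually linked to T cells. DOCK1, an activator of the RAC GTPase, had 39355 and 38152 counts in HPB-ALL, 0.976 and 0 in CUTLL1, and 0.969 and 33.9 in KOPTK1 (log2 difference 13.47, SE 1.00). CSMD1, a complement-control protein, had 33966 and 32941 counts in HPB-ALL, 2.93 and 3.45 in CUTLL1, and 4.84 and 22.8 in KOPTK1 (log2 difference 12.22). In both genes the ASO control was the higher of the 2 KOPTK1 libraries. PLEK, a platelet and leukocyte substrate of protein kinase C, had 34154 and 33247 counts in HPB-ALL, 6.83 and 5.76 in CUTLL1, and 12.6 and 45.6 in KOPTK1. MARCKS, another substrate of that kinase, had 11326 and 11559.6 counts in HPB-ALL, 0.976 and 3.45 in CUTLL1, and 0.969 and 4.56 in KOPTK1. The cell-adhesion gene CDH2 (N-cadherin) had 4569.7 and 4541 counts in HPB-ALL and at most 7.17 elsewhere. With T-cell receptor segments left aside, the 12 largest differences belonged to these 5 genes, to TLX3 and to KANK4, TRIO, MYLPF, WDFY3, SPG20 and BEST3, the last 6 at log2 differences from 10.76 to 11.86.

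Over 42 genes high in HPB-ALL alone, the median level in the KOPTK1 ASO control was 0.133% of that in HPB-ALL, against 0.042% in the KOPTK1 guide control, 0.0416% in the CUTLL1 ASO control and 0.0271% in the CUTLL1 guide control. Values of a few counts for such genes outside HPB-ALL lie at that level, and their source was not tested.

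Among the genes near 0 in HPB-ALL alone, NRN1 had the largest difference, with no read in either HPB-ALL library. Computed against a floor of 3 reads per HPB-ALL library, its log2 difference was at or below -9.72. ACAA2, an enzyme of mitochondrial fatty acid breakdown, had 2.64 and 1.9 counts in HPB-ALL, 5346 and 5084 in CUTLL1, and 4099.7 and 4270.1 in KOPTK1 (log2 difference -10.49). PYCR1, which makes proline in mitochondria, had 1.32 and 0.952 counts in HPB-ALL, 1791 and 1766 in CUTLL1, and 3994 and 3844 in KOPTK1 (log2 difference -10.28). RGS19, a regulator of G-protein signalling, had 1.32 and 0 counts in HPB-ALL, 1657 and 1816 in CUTLL1, and 1835 and 1715 in KOPTK1. These genes were at the level of single reads in HPB-ALL and at 1657 or more elsewhere. YBX3, a cold-shock domain protein, ZNF512B, SCML2, SLCO4A1, TMEM106B, FBXO44 and ARHGAP32 completed the 12 with MFNG, at log2 differences from -10.34 to -9.94.

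Some distinct genes lay side by side, a pattern chosen after the values were seen. Gene order was taken from RefSeq (GRCh38.p14), whereas the authors' build was hg19. The longest run of neighbours that were distinct and higher held 9 genes of the protocadherin gamma cluster on chromosome 5, at log2 differences of 2.70 to 7.43, whose transcripts share exons and so may share reads. On chromosome 11 a run of 5 genes, ARHGAP42, TMEM133, KIAA1377, YAP1 and BIRC3, was higher, at log2 differences of 3.19 to 7.86. The longest run of distinct and lower genes held 8, between SEMA3G and SPCS1 on chromosome 3, at log2 differences of -9.05 to -1.11, and 5 Schlafen-family genes from SLFN5 to SLFN12L on chromosome 17 were lower (-8.27 to -2.54). HOXB3, HOXB4 and HOXB7 were lower as a block, at -9.43 to -7.74, while HOXA3, HOXA5 and HOXA6 were higher.

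Whole stretches of chromosomes were also shifted by similar amounts. Stretches were chosen where the running median over 25 genes was past 0.5 in size, in 1 direction, against both lines, so their medians in control libraries are a description. Over 10516 protein-coding genes with a mean of 100 or more, 36.3% were lower and 35.2% higher in HPB-ALL than in both lines. On chromosome 3, 310 consecutive genes from TRNT1 to CRYBG3 had a median log2 difference of -1.08 against CUTLL1 and -1.05 against KOPTK1, and 261 were lower than both lines. Between CUTLL1 and KOPTK1 the median over the same genes was 0.03. In that stretch 126 genes were distinct and lower (40.6%) and 13 distinct and higher (4.19%). The run of lower genes from SEMA3G to SPCS1 lies within it. On chromosome 16, 140 genes from POLR3K to PARN had a median of -1.02, 121 of them lower than both lines, with 56 distinct and lower (40.0%). Higher by a smaller step were 122 genes on chromosome 9 from SEMA4D to PSMB7, with a median of 0.62.

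Several genes of the lists lie in these stretches. On chromosome 3 they include XPC, CCR9, CCR8, CISH, GNL3, RRP9 and SHQ1, all lower in HPB-ALL, but also SATB1, CCR4 and CX3CR1, which were higher by log2 differences of 1.84, 5.39 and 8.31 against that shifted background. On chromosome 16 they include TSC2. For the named genes with a log2 difference near -1, such as RRP9, GNL3 and TSC2, the difference was about that of their stretch. The genes on either side of TLX3 on chromosome 5 differed from each other: the 25 tested genes before it in the reference order (MRPL22 to LCP2) had a median log2 difference of 0.03, with 6 lower than both lines, and the 25 after it (NPM1 to RNF44) had a median of -0.80, with 18 lower than both lines.

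**Figure D5:**
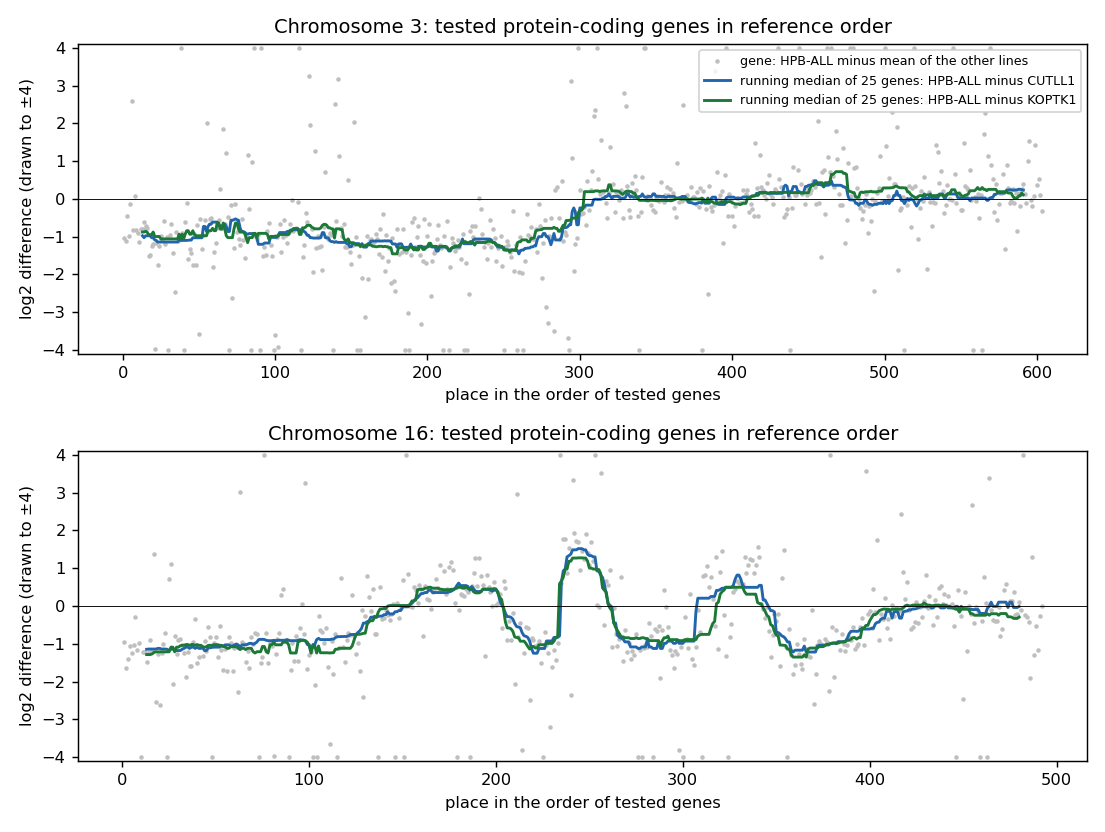
Running median over 25 genes of the log2 difference of HPB-ALL minus CUTLL1 and of HPB-ALL minus KOPTK1 along chromosomes 3 and 16, with genes in reference order on the x axis (rank, not bases). Grey points are single genes, and differences past 4 in size are drawn at 4. Both running medians lie near -1 over the first 310 genes of chromosome 3 and the first 140 of chromosome 16.

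The line differences could be looked at again in libraries that the comparison had not used, the 2 guide-targeted libraries of each line. There 5388 of 13718 genes were higher (39.3%) and 5362 lower (39.1%) in HPB-ALL, and 1050 were distinct and higher (7.65%) and 1234 distinct and lower (9.0%). Of the 1187 genes distinct and higher in control libraries, 972 could be tested: 966 had the same sign, 958 were called higher, 786 were again distinct and 3 were called lower (DOK3, DHTKD1 and AARD, named after their values were seen). Of the 1308 distinct and lower genes 1163 could be tested, and 1157 of these had the same sign. Of the 1163, 1148 were called lower, 931 were again distinct and 2 were called higher (C17orf103 and CUEDC1, likewise). The other 215 distinct and higher and 145 distinct and lower genes had no test in the targeted libraries. A gene whose level was low there could drop out in this way, so the agreement covers the tested genes only. Out of all 1187 and 1308 distinct genes, 786 and 931 were again distinct. TLX3 had 5898 and 4718 counts in the targeted HPB-ALL libraries (log2 difference 11.36), and the chromosome 3 stretch had medians of -1.01 and -1.01 against the 2 other lines.

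Some levels differed between the control and the targeted HPB-ALL libraries. In 219 of the 1187 distinct and higher genes (18.4%) the HPB-ALL control mean was at least 4 times the targeted HPB-ALL mean, against 753 of all 14228 (5.29%). The former were chosen for high values in these control libraries, so such an excess is in part built in. Of the 1308 distinct and lower genes, 115 (8.79%) showed it too. The reverse, a targeted mean at least 4 times the control mean, held for 86 of all tested genes (0.604%), 13 distinct and higher and 25 distinct and lower. IGHM had 18.3 and 13.8 counts in the targeted HPB-ALL libraries, against 777 and 822 in the HPB-ALL controls. HOXA5 had 51.1 and 24.6 counts in the targeted HPB-ALL libraries, against 174 and 171 in the HPB-ALL controls. CD1A had 774 and 732 counts in the targeted HPB-ALL libraries, against 17704 and 17212 in the HPB-ALL controls, and was still higher than in the targeted libraries of the other lines (log2 difference 2.62). EGR1, distinct and lower in the controls, did not pass the test in the targeted libraries (log2 difference 0.16, adjusted p = 0.23 by limma). Values above are those of the control libraries, and the difference between control and targeted HPB-ALL libraries was not tested here.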

How the data were processed

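The deposited table gives 57820 genes by symbol, 2344 of them with an Ensembl identifier before it, and its values are a signal, the normalised read counts that the authors made for each library. In every column 100% of values were whole multiples of the value of 1 read within a tolerance of 1e-06, so whole reads could be recovered. STAR (version 1.4.2), DESeq2 and hg19 are named, without roles, per the submitters' processing notes. For the counter, the annotation and strand in counting, the step taken is not given in the sources used here, so antisense, overlapping and near-identical genes may share reads. The column headers spell HPB as HBP, and 0 value columns were left unmapped.

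Groups came from the labels. Tests used limma (3.58.1, R 4.3.3) on log2(normalised count + 1) and moderated along an intensity trend. Genes needed a mean of at least 20 over the 6 control libraries. A gene high in HPB-ALL alone could pass through the HPB-ALL libraries, and its p-value then adds no support. There were 3 residual degrees of freedom, and Benjamini-Hochberg adjusted p-values under 0.05 were called. The contrast was HPB-ALL minus the mean of the 2 other line means. The added 1 shrinks the fold change of genes with low counts. The fit was also run on simulated counts in which only a small set of genes was changed. Most genes differed between these lines, so no conclusion is drawn from that run. Alternatives included edgeR (4.0.16) and DESeq2 (1.42.0) on recovered reads.

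The comparison, the 33 gene lists (752 of 755 entries matched, not TRBC1, LUNAR1 and PECAM1) and the rules were chosen with earlier results of these data known. Genes named are the 12 largest distinct differences per direction with a mean of 100 or more, up to 4 distinct members of each list per direction, the subtype factors, the leading receptor segments of each line, a few fixed genes and runs of neighbours. Some listed genes are not reported here. Other genes are named as list members or after their values were seen. Symbols (34541 matched), gene order and promoters came from RefSeq (GRCh38.p14).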

Additional observations from a re-analysis of the deposited data

How the results depend on the processing

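The counts over all genes kept within 1.5 times the reported value under another pseudocount, 3 other scalings, robust moderation, guide controls alone, agent as a term, all 16 libraries in the fit, edgeR and DESeq2. The exception was the count of distinct and higher genes (1187), which was 2635 with no filter on low values and 731 with a mean of 100 or more; these settings change the number of genes tested to 30935 and 11512. Leaving out each control library in turn gave 1041 to 1212 distinct and higher genes, 1262 to 1362 distinct and lower, 5185 to 5738 genes higher and 5394 to 5586 lower than the mean of the other lines, 10449 to 11315 called against CUTLL1 and 10495 to 11109 against KOPTK1. A line left with 1 library was then assumed to vary like the others. Of the distinct genes, 1177 higher and 1292 lower were shared with edgeR, and 1145 and 1134 with guide controls alone. Over 219 named genes and 18 alternatives no direction of a call reversed, and 17 values of 9 genes (TLX1, BCL11B, NUP214, TRBV9, TRBV29-1, TRGC1, TRAV30, TRDC and TRAJ32) lost their call; the cause was not tested. The HLA class II median has no value at a mean of 100 or more, since no member passed. No paired analysis was possible for the control comparison because the groups share replicate number 1 alone. In the targeted libraries the guide number as a replicate block gave 5601 genes higher and 5528 lower, against 5388 and 5362 without it, and same-numbered libraries did not deviate together (correlations 0.086, 0.0126 and 0.0289). Leaving out each targeted library gave 4654 to 5471 higher and 4860 to 5326 lower. In HPB-ALL 3 reads were worth up to 3.96 counts, so a gene listed at 0 may lie below that level.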

Other observations

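Some distinct genes belonged to lists of other cell types. CDH1 (E-cadherin), an epithelial adhesion gene, had 204 and 170.5 normalised counts in HPB-ALL, 12.7 and 13.8 in CUTLL1, and 2.91 and 0 in KOPTK1, and 7.18 and 4.61 in the targeted HPB-ALL libraries. EPOR, the erythropoietin receptor, made up most of the erythroid marker sum and was distinct and lower in HPB-ALL. Among cytotoxic markers, the granule genes NKG7 and PRF1 were distinct and lower, while the summed list had 2369 and 2299 counts in HPB-ALL, 2955 and 3052 in CUTLL1, and 2388 and 2378 in KOPTK1.

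Antigen presentation and sterol genes differed in single members. HLA-F, a non-classical class I gene, had 529.9 and 549 counts in HPB-ALL, 102 and 128 in CUTLL1, and 114 and 104 in KOPTK1 (log2 difference 2.26), and HLA genes may share reads. ERAP2, which trims peptides for class I molecules, had 5661 and 5841 counts in HPB-ALL, 18665 and 18937 in CUTLL1, and 13130.2 and 13103 in KOPTK1 (log2 difference -1.45). SREBF1, a master regulator of lipid synthesis, had 2125 and 2108 counts in HPB-ALL, 6961 and 7063 in CUTLL1, and 10133 and 9705 in KOPTK1 (log2 difference -1.98). CYP51A1, an enzyme of cholesterol synthesis, had 366 and 291 counts in HPB-ALL, 125 and 152 in CUTLL1, and 25.2 and 27.4 in KOPTK1 (log2 difference 2.41). FOXP3, the factor of regulatory T cells, was distinct and higher at a low level. It had 43.6 and 31.4 counts in HPB-ALL, 9.76 and 16.1 in CUTLL1, and 5.81 and 16.3 in KOPTK1 (log2 difference 1.65, adjusted p = 0.0065 by limma). Its mean reached the filter of 20 through the HPB-ALL libraries alone, so that p-value adds no support.

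The promoters of genes that were on or off in HPB-ALL alone, in the RefSeq window used for TLX3, held a median of 24 CG dinucleotides for the 63 matched of 91 genes on in HPB-ALL and 29 for the 80 matched of 103 genes off in HPB-ALL, against 26 over the promoters of tested genes and 14 over all promoters in the table.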
